A study of Mus musculus with 4 samples.

Results

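The proteasome subunits and the ubiquitin-conjugating (E2) enzymes were examined in mouse cumulus cells (CCs), the somatic cells around the oocyte of the antral follicle. Members were all probes of the deposited signal table whose gene name begins with Psm, followed by a letter from a to g and a number, or with Ube2 followed by a letter. The rule used no measured value and found 67 of 18118 gene names, on 100 of 25697 probes. They fall into 24 probes of 17 genes of the core particle, 36 probes of 23 genes of the cap and the regulators, and 38 probes of 25 E2 genes. The remaining 2 names match by spelling and encode no subunit of the particle by their annotation: Psmc3ip, a cofactor of meiotic recombination, and Psme2b, named as a relative of the regulator gene Psme2, whose transcripts its probe may share.

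The study asked how the transcripts of CCs differ between oocytes that can and cannot support development. SN-CCs came from oocytes with a ring of chromatin around the nucleolus, which are competent, and NSN-CCs from oocytes without that ring, which are not. All donors were B6C3F1 females, 6 weeks old in the sample labels (the methods give a range that ends there), primed with the gonadotropin folligon, and the labels name the tissue as oocytes although titles and source names say CCs. Each type of CCs was pooled from many animals into 2 pools, each with its own Illumina mouse BeadChip after linear amplification of the RNA, so n = 2 pools per group and p-values measure the spread between these pools.

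The proteasome is the protease that takes apart proteins tagged with ubiquitin. Its barrel-shaped core is built of rings of alpha subunits, which form the gate, and rings of beta subunits, some of which carry the catalytic sites, and a cap of ATPases (Psmc genes) and non-ATPases (mostly Psmd genes) binds, unfolds and feeds the substrate. E2 enzymes receive ubiquitin or a related modifier from an E1 enzyme and pass it to the substrate, mostly together with a ligase, and in oocytes and their follicles this system is known for removing cyclins and other regulators of meiosis and the cell cycle.

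Proteasome genes are known to be activated together by the transcription factor NFE2L1 through antioxidant response elements, so the RefSeq promoters of the members (GRCm38.p6, from 250 bases before to 50 bases after the start site) were read for the core of that element. Of 65 member genes 55 had a promoter in the table. These genes had 68 promoter windows, and a gene was counted if any of its windows held a match. The letters TGACNNNGC, on either strand, stood in 10 of the 55 genes (18.2%), against 14% of all 27025 genes with a promoter. They stood in 2 of 14 core genes, 4 of 21 cap and regulator genes and 4 of 20 E2 genes. The matches are shown for the catalytic genes Psmb5 and Psmb6, for the cap assembly gene Psmd9, whose probe is among the members with the smallest p, and for the ATPase gene Psmc6, on the strand of the gene and with the match in capitals.
Psmb5, chr14:54618019-54618057, minus strand: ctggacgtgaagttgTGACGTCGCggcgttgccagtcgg
Psmb6, chr11:70525333-70525356, plus strand: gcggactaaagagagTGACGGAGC
Psmd9, chr5:123228144-123228182, plus strand: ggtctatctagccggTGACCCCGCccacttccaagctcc
Psmc6, chr14:45329582-45329620, plus strand: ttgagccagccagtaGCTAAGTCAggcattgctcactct
The match ends 39 bases before the start site in Psmb5, 1 base before it in Psmb6 and 23 bases before it in Psmd9, and in Psmc6 it lies on the other strand, 219 bases before the start. A match describes the letters of the window and shows no binding. The CCAAT box, also read on both strands, was found in 19 of the 55 genes (34.5%, against 41.1% of all) and in 7 of the 14 core genes. The letters TTTGAA, the cell cycle homology region, were found in 5 of 55 (9.09%, against 20.2% of all) and in 0 of the 14 core genes.

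Signals are the deposited intensities in arbitrary units, with the background still in them. The background limit of an array, the 95th percentile of its 1354 probes for chemosensory receptors, lay between 116 and 120. Of the 100 member probes 73 were above it on all 4 arrays and 13 on none. SN-CCs replicate 2 stood apart: its median signal was 113 against 122 to 125 on the other arrays, and it had 11721 probes above the limit against 13522 to 13651. In its normalized values the 73 members deviated from the mean of the other 3 arrays with a median size of 0.54 in log2 units, against 0.22 to 0.26 for the other arrays. It gave the highest value of the 4 arrays for 41 of the 73 (56.2%, against 59.2% of all probes above the limit) and the lowest for 29 (39.7%, against 29.4%). A deviation of over 1 on the log2 scale was found in 18 of the 73 (24.7%, against 17.2% of all), with 13 lower and 5 higher. Fold changes are therefore also given without SN-CCs replicate 2 (in brackets, after the word or), which leaves 1 pool of SN-CCs and no measure of their own spread. Since the pools are bulk samples, fewer cells of a type and less RNA per cell cannot be told apart.

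The comparison of NSN-CCs with SN-CCs used background-corrected, quantile normalized log2 values fitted with limma, and every log2 fold change is the value of NSN-CCs less that of SN-CCs, given with its standard error after the ± sign. Whether groups overlap is read from the normalized values. No member passed an adjusted p of 0.05 (0 of 100, against 0% of all probes by limma with Benjamini-Hochberg adjustment), and the adjusted p of the members lay between 0.811 and 0.995. An unadjusted p under 0.05 was reached by 8 members, all of them lower in NSN-CCs, against 2.02% of all probes that were lower and 1.09% that were higher at that threshold. The count moved with single pools. It was 72 without SN-CCs replicate 1, where 68 members and 9582 of all 25697 probes had an adjusted p under 0.05 (limma), 18 without SN-CCs replicate 2 and 0 without either NSN-CCs pool. All 8 were above the limit on all 4 arrays, where the shares of all probes were 4.34% and 2.02%. They belong to 7 names: the alpha subunits Psma5 and Psma2, the cap genes Psmd9 and Psmd14, the E2 genes Ube2g1 (with a pair of probes) and Ube2d3, and Psmc3ip. In 32 of the 100 members each NSN-CCs pool was below each SN-CCs pool, against 22.2% of all probes, and above them for 13, against 16%. Among the 73 above the limit on all arrays the counts were 31 (42.5%, against 28%) and 7 (9.59%, against 16.1%). An exact permutation test of a single probe with 2 pools against 2 cannot give a two-sided p below 0.333.

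Of the 73, 46 had lower and 27 had higher values in NSN-CCs (median log2 fold change -0.16), where 62.5% of all probes above the limit were lower, with a median of -0.13. Without SN-CCs replicate 2, 51 of the 73 were lower (69.9%, median -0.12), while 50.2% of all such probes were lower and their median was -0.0013. The 73 members were picked by their level in both groups, and the shares are a description.

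**Figure D1:**
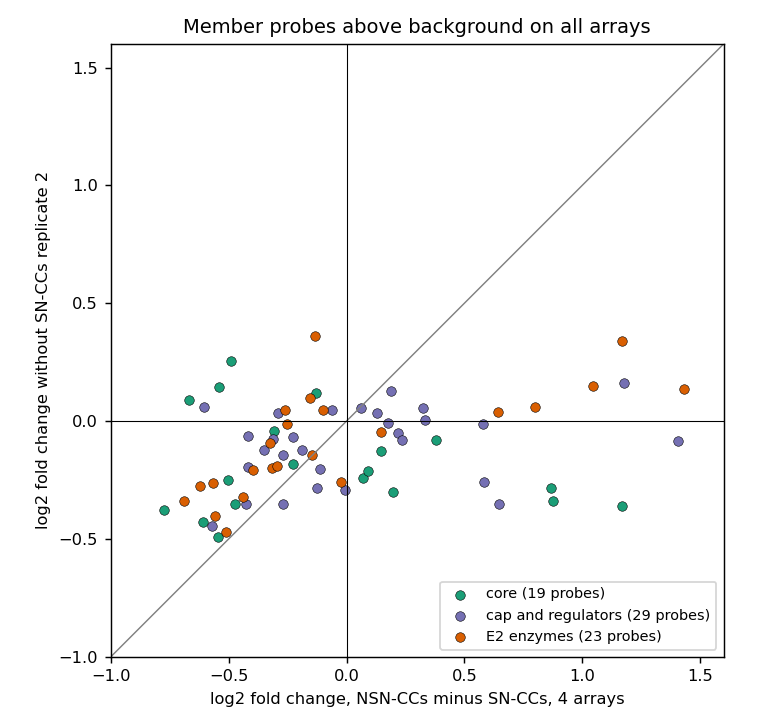
Log2 fold change (NSN-CCs minus SN-CCs) of each of 71 member probes that exceeded the background limit on every array, from all 4 arrays on the x axis and without SN-CCs replicate 2 on the y axis, coloured by class, with the line of equal values. Without that array Psmd7, far to the right at 1.41, falls to -0.086, Psma7 goes from 1.17 to -0.36 and Ube2e3 from 1.17 to 0.34, while Psma5 is at -0.55 with it and at -0.49 without it.

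Among the alpha ring genes the values of Psma5 and Psma2 were lower in both NSN-CCs pools, while Psma7 and Psma4 depended on a single array. Psma5, a subunit of the ring that gates the core, had signals of 14739 and 16998 in the SN-CCs pools against 9476 and 9275 in the NSN-CCs pools. Both NSN-CCs pools were below both SN-CCs pools, and the pools of each type lay close together. Its normalized log2 values were 13.86 ± 0.08 for SN-CCs and 13.31 ± 0.03 for NSN-CCs (SD, n = 2 pools), a log2 fold change of -0.55 ± 0.14 with an unadjusted p of 0.0139 and an adjusted p of 0.811 from limma, and of -0.49 without SN-CCs replicate 2. Psma2 had signals of 35049.8 and 44996 in the SN-CCs pools against 25051 and 23862 in the NSN-CCs pools. Its groups did not overlap either, with SN-CCs replicate 2 the highest, and its log2 fold change was -0.61 ± 0.18 (limma, unadjusted p = 0.0274, adjusted p = 0.811), or -0.43 without that array. In Psma3 the signals on its bright probe were 13841 and 17216 in the SN-CCs pools against 10451 and 8606 in the NSN-CCs pools, again without overlap (log2 fold change -0.47 ± 0.18, or -0.35, limma, unadjusted p = 0.0542 with all arrays).

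Psma7 had signals of 5595 and 535 in the SN-CCs pools against 3818 and 3986 in the NSN-CCs pools. The low value is that of SN-CCs replicate 2, at 9.56% of the signal of SN-CCs replicate 1, and the remaining pool of SN-CCs was above both NSN-CCs pools. The log2 fold change was 1.17 ± 1.06 with that array and -0.36 without it, and a further Psma7 probe gave the same pattern (0.87 and -0.28). In Psma4 the signals were 10984 and 5794 in the SN-CCs pools against 8026 and 7511 in the NSN-CCs pools, with log2 fold changes of 0.20 ± 0.37 and -0.30. The probes of Psma1 (86.5 and 87.6 in the SN-CCs pools against 92.5 and 82 in the NSN-CCs pools) and Psma6 (85.7 and 80.4 in the SN-CCs pools against 95.7 and 93.5 in the NSN-CCs pools) were not above background on any array. Over the brightest probe of each of the 7 alpha genes the median log2 fold change was -0.053, with 4 lower, and -0.35 without SN-CCs replicate 2, with 6 lower. The same medians over the brightest probe of every gene on the array were -0.054 and 0.00080. The median of -0.053 is the value of Psma1, which was above background on no array. Over the 5 alpha genes above the limit on all arrays the median was -0.47, with 3 lower. Without SN-CCs replicate 2 it was -0.36, with 5 lower. For the brightest probes of all genes above the limit the medians were -0.15 and 0.0019, with 64.9% and 49.6% lower.

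The beta ring had no member at an unadjusted p under 0.05 on 11 probes. On their brightest probes the catalytic subunits did not separate the groups. Psmb5, the chymotrypsin-like site, had signals of 987 and 467 in the SN-CCs pools against 751 and 799 in the NSN-CCs pools, where the NSN-CCs pools lay between the SN-CCs pools, and a log2 fold change of 0.069 ± 0.25 (adjusted p = 0.95, limma). Psmb6, the caspase-like site, had signals of 7419 and 5220.5 in the SN-CCs pools against 6063 and 5662 in the NSN-CCs pools and a log2 fold change of 0.15 ± 0.23. For both the NSN-CCs pools were below SN-CCs replicate 1, and the log2 fold changes without SN-CCs replicate 2 were -0.24 and -0.13. Psmb7, the trypsin-like site, is read by 3 probes that did not give the same direction. The brightest had signals of 10869.7 and 1923 in the SN-CCs pools against 8086 and 7008 in the NSN-CCs pools (log2 fold change 0.87 ± 0.84). The next had signals of 5758 and 3811 in the SN-CCs pools against 4172 and 4553 in the NSN-CCs pools (0.089 ± 0.25). On the last they were 2086 and 3459.7 in the SN-CCs pools against 1389 and 1542 in the NSN-CCs pools (-0.77 ± 0.31, unadjusted p = 0.0612, limma). SN-CCs replicate 2 was far below replicate 1 on the brightest probe and above it on the last, and without it all 3 log2 fold changes were below 0 (-0.34, -0.21 and -0.38).

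Of the beta subunits without a catalytic site, Psmb2 had signals of 8098 and 12210.5 in the SN-CCs pools against 5697 and 6029 in the NSN-CCs pools and Psmb1 of 6548 and 9879 in the SN-CCs pools against 5422 and 5566 in the NSN-CCs pools. Both NSN-CCs pools were below both SN-CCs pools in each gene, with SN-CCs replicate 2 the highest, and the log2 fold changes were -0.50 ± 0.22 and -0.31 ± 0.22, or -0.25 and -0.04 without that array. A further Psmb2 probe, above the limit on all 4 arrays, was also lower in both NSN-CCs pools (-0.23 ± 0.14, or -0.18). Psmb4, with signals of 22013 and 12289.8 in the SN-CCs pools against 17162 and 18043 in the NSN-CCs pools, had a log2 fold change of 0.38 ± 0.34, and of -0.079 without SN-CCs replicate 2, its lowest array. For Psmb3 the groups overlapped (-0.13 ± 0.23, or 0.12), and the sign turned without SN-CCs replicate 2. Over the 7 genes the median was 0.069 with 3 lower, and -0.13 with 6 lower when SN-CCs replicate 2 was left out.

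The immune beta subunits replace the catalytic ones in cells that present antigen or have met interferon. Psmb10, the counterpart of Psmb7, had signals of 631 and 1485 in the SN-CCs pools against 585 and 656 in the NSN-CCs pools. Psmb9, the counterpart of Psmb6, had signals of 224 and 387 in the SN-CCs pools against 233 and 238 in the NSN-CCs pools. In both genes SN-CCs replicate 2 was high alone and the other 3 arrays lay together, which a further Psmb10 probe repeated (544 and 1232 in the SN-CCs pools against 604 and 589.6 in the NSN-CCs pools). The log2 fold changes were -0.67 ± 0.54 and -0.54 ± 0.49, and 0.09 and 0.15 without that array. Psmb8, the counterpart of Psmb5, stayed near the background limit, with signals of 139 and 114 in the SN-CCs pools against 118 and 143 in the NSN-CCs pools. The summed signal of the interferon response list (15 genes) was 17491 and 19790.1 for SN-CCs, 14361 and 13892 for NSN-CCs. The single gene B2m gave 8769 and 9394 of this for SN-CCs, 5597 and 5747 for NSN-CCs. Of the 15 genes 11 were lower in NSN-CCs on their brightest probe (73.3%, against 59.8% of the brightest probes of all genes) and 4 higher. On no array were 3 of the 15 above the limit. Of the 13 leukocyte markers 7 were above the limit on all 4 arrays, 1 on none (Ptprc, the pan-leukocyte antigen), and their summed signals were 2096 and 2036 for SN-CCs, 2176 and 2394 for NSN-CCs. The part of either in the Psmb9 and Psmb10 values was not tested.

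**Figure D2:**
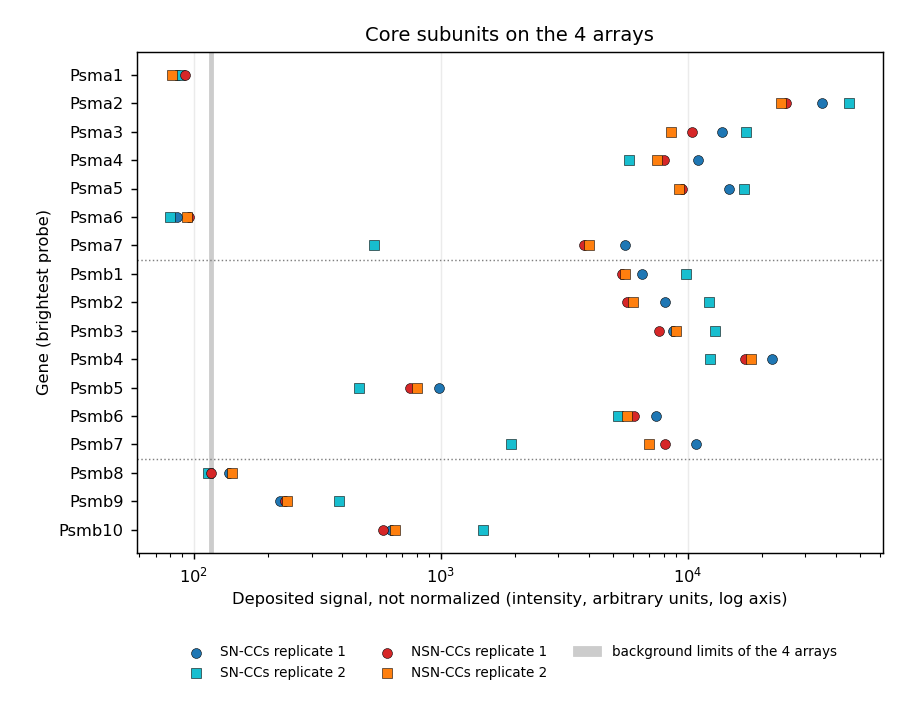
Deposited signal (log axis, arbitrary units) of the brightest probe of each of 17 core genes on the 4 arrays, alpha ring above, beta ring in the middle and immune subunits below, with the background limits as a grey band. Psma5 and Psma2 show both NSN-CCs pools left of both SN-CCs pools, and Psma7 and Psmb7 show SN-CCs replicate 2 alone far to the left.

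In the cap, 8 of 12 non-ATPase genes and 4 of 6 ATPase genes were lower in NSN-CCs on their brightest probe (66.7% of each), against 64.9% of the brightest probes of all genes above the limit and 59.8% of all brightest probes. Psmd9, an assembly chaperone of the cap base whose promoter match is printed above, had signals of 284 and 223 in the SN-CCs pools against 193 and 213 in the NSN-CCs pools. Both NSN-CCs pools were below both SN-CCs pools, by little on the scale of the signals, and its log2 fold change was -0.57 ± 0.16 (limma, unadjusted p = 0.0232, adjusted p = 0.811) and -0.45 without SN-CCs replicate 2. A further Psmd9 probe, at or near the limit, gave 0.36 ± 0.27, and 0.017 without that array. Psmd14, the deubiquitinase that removes the ubiquitin chain at the cap, had signals of 1417 and 1323 in the SN-CCs pools against 959 and 1076 in the NSN-CCs pools. The groups were apart, and the log2 fold change was -0.43 ± 0.15 (limma, unadjusted p = 0.0448, adjusted p = 0.811), or -0.35 without that array. Its partner in the lid, Psmd7, had signals of 4012 and 4908 in the SN-CCs pools against 3322 and 3233 in the NSN-CCs pools on one probe (-0.27 ± 0.16) and of 2509 and 235 in the SN-CCs pools against 2086 and 2204 in the NSN-CCs pools on another (1.41 ± 1.03). The latter value rests on SN-CCs replicate 2, at 9.38% of replicate 1, and without it the probes gave -0.15 and -0.086.

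Psmd4, the ubiquitin receptor of the cap, had signals of 10269 and 10017 in the SN-CCs pools against 9235 and 10460.3 in the NSN-CCs pools. Its signals overlapped, its normalized values were higher in both NSN-CCs pools, and its log2 fold change of 0.19 ± 0.15 (0.13 without SN-CCs replicate 2) turned to -0.099 under median scaling. Psmd2, a scaffold of the base, had signals of 227 and 145 in the SN-CCs pools against 173 and 171 in the NSN-CCs pools (-0.27 ± 0.14, or -0.35). Here too the signals overlapped and the normalized values did not, with both NSN-CCs pools lower. Psmd5, an assembly chaperone, had signals of 343 and 125 in the SN-CCs pools against 346 and 299.9 in the NSN-CCs pools (0.58 ± 0.43, and -0.013 without SN-CCs replicate 2, the low array). Another chaperone, Psmd10, gave -0.11 on its brightest probe and -0.0072 and 0.58 on the others, and -0.20, -0.29 and -0.26 without that array. Of the scaffold Psmd1 and the lid subunits, Psmd1 (-0.42 ± 0.20, or -0.19) and Psmd13 (-0.23 ± 0.17, or -0.069) had both NSN-CCs pools lowest, and Psmd8 overlapped (-0.12 ± 0.18, or -0.28). SN-CCs replicate 2 was the low array for Psmd11 (0.24 ± 0.26, or -0.08) and Psmd12 (0.33 ± 0.27, or 0.0035), and another Psmd12 probe was lower in both NSN-CCs pools (-0.19 ± 0.14, or -0.12). Over 12 non-ATPase genes the median was -0.18 with 8 lower. Both NSN-CCs pools were lowest in 7 of the 12 (58.3%) and highest in 1 (8.33%), against 29.2% and 15.5% of the brightest probes of all genes above the limit. The median was -0.17 with 10 lower when SN-CCs replicate 2 was left out.

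Among the ATPases, which unfold the substrate, Psmc2 had signals of 9738 and 15982 in the SN-CCs pools against 9049 and 8141 in the NSN-CCs pools, with SN-CCs replicate 2 alone high, and a log2 fold change of -0.29 ± 0.26 that became 0.036 without it. Psmc5 had signals of 3576 and 5046 in the SN-CCs pools against 2895 and 3031 in the NSN-CCs pools on its brightest probe, with both NSN-CCs pools lowest (-0.35 ± 0.20), and of 2698 and 514 in the SN-CCs pools against 2855 and 2558 in the NSN-CCs pools on the other, with SN-CCs replicate 2 alone low (1.18 ± 0.71). The 2 probes thus disagreed, and without that array they gave -0.12 and 0.16. Psmc3 had signals of 3837 and 3849 in the SN-CCs pools against 3463 and 3657 in the NSN-CCs pools, lower in NSN-CCs before normalization, and a log2 fold change of 0.061 ± 0.13 (0.058 without SN-CCs replicate 2), which was -0.17 under median scaling. In Psmc1 the signals were 2115 and 1429 in the SN-CCs pools against 1726 and 2068 in the NSN-CCs pools (0.18 ± 0.20, or -0.0063), and Psmc4 gave -0.31 ± 0.21, and -0.077 without SN-CCs replicate 2. Psmc6, whose promoter match is also printed above, had signals of 115 and 133 in the SN-CCs pools against 101 and 114 in the NSN-CCs pools and was not above background in either NSN-CCs pool and in 1 of 2 SN-CCs pools. The SN-CCs mean, in which replicate 1 is itself under its limit, was at least 1.195-fold the background of the NSN-CCs arrays (adjusted p = 0.811, limma). This bound rests on SN-CCs replicate 2, the only pool above its limit. The log2 fold change was -0.42 ± 0.25, or -0.15 without that array. The median of the 6 ATPase genes was -0.30, and -0.042 without SN-CCs replicate 2.

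None of the regulators that bind the core had an unadjusted p under 0.05 on any of their 8 probes. Psme1, a subunit of the interferon-inducible activator, had signals of 4856 and 5846 in the SN-CCs pools against 4127 and 4648 in the NSN-CCs pools on its brightest probe (-0.063 ± 0.16, or 0.048) and of 2704 and 1685 in the SN-CCs pools against 2314 and 2382 in the NSN-CCs pools on another (0.22 ± 0.23, or -0.052). SN-CCs replicate 2 was the highest array on the former probe and the lowest on the latter. Its partner Psme2 had signals of 1025 and 183 in the SN-CCs pools against 762 and 729 in the NSN-CCs pools (0.65 ± 0.70, or -0.35), with that array the lowest and the sign turned without it. Psme3, the nuclear activator, had signals of 3261 and 2113 in the SN-CCs pools against 3000.3 and 3040.2 in the NSN-CCs pools (0.32 ± 0.23, or 0.054), with the normalized values of both NSN-CCs pools higher, and Psme4, which acts on histones, of 4673 and 4122 in the SN-CCs pools against 4086 and 4295 in the NSN-CCs pools (0.13 ± 0.15, or 0.033). Psmf1, an inhibitor of the core, had signals of 1268 and 2974 in the SN-CCs pools against 1191 and 1180.5 in the NSN-CCs pools. SN-CCs replicate 2 again stood alone, and the log2 fold change of -0.60 ± 0.47 became 0.058 without it. A further Psmf1 probe, above the limit on all 4 arrays, was lower in both NSN-CCs pools (-0.42 ± 0.28, or -0.063). A further Psme4 probe, above the limit on 3 arrays, was higher in both NSN-CCs pools (0.41 ± 0.19, or 0.23). The median of the 5 regulator genes was 0.13, and 0.048 in the absence of SN-CCs replicate 2.

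**Figure D3:**
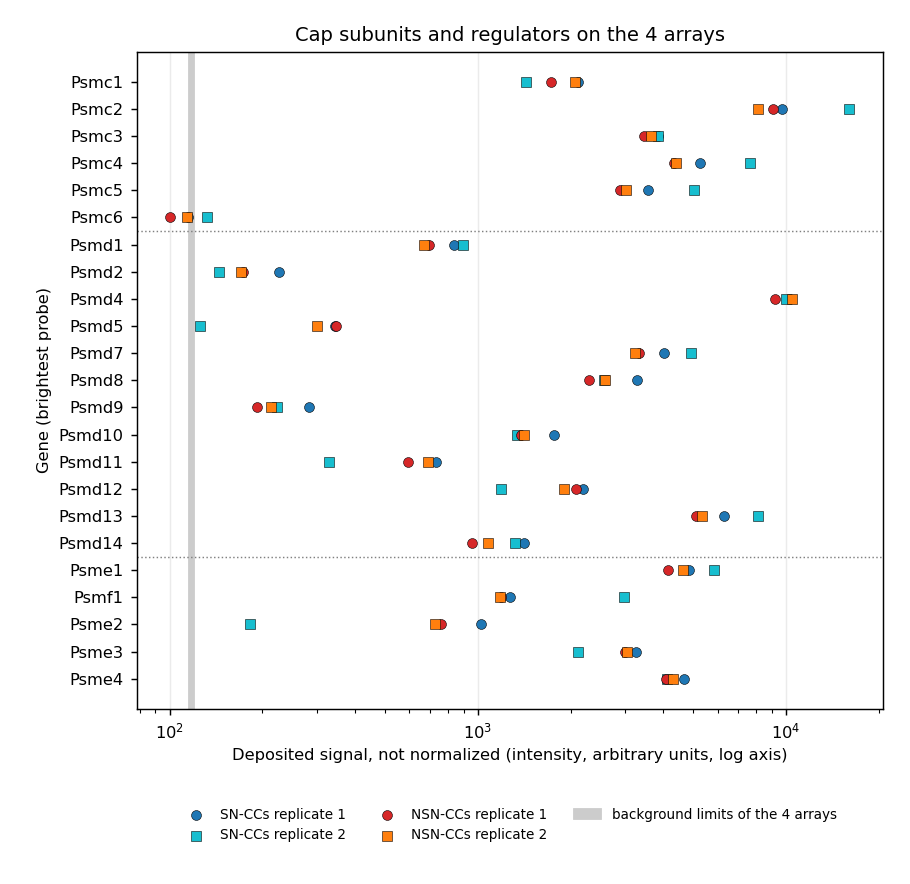
Deposited signal (log axis, arbitrary units) of the brightest probe of each of 23 cap and regulator genes on the 4 arrays, ATPases above, non-ATPases in the middle and regulators below, with the background limits as a grey band. Psmd14 shows both NSN-CCs pools to the left, Psmc2 and Psmf1 show SN-CCs replicate 2 alone to the right, and Psme2 shows it alone to the left.

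Of the 25 E2 genes 15 had their brightest probe above the limit on all 4 arrays and 3 on none. Ube2g1, an E2 of proteins cleared from the endoplasmic reticulum, had the smallest unadjusted p among them on a pair of probes. One had signals of 1759.7 and 1648 in the SN-CCs pools against 1286 and 1069.9 in the NSN-CCs pools, the other of 1624 and 1799 in the SN-CCs pools against 1178 and 1078 in the NSN-CCs pools. On both the NSN-CCs pools were below the SN-CCs pools, with log2 fold changes of -0.51 ± 0.17 and -0.56 ± 0.18 (limma, unadjusted p = 0.0343 and 0.0311, adjusted p = 0.811), or -0.47 and -0.40 without SN-CCs replicate 2. The remaining Ube2g1 probe disagreed, with signals of 1070.1 and 269 in the SN-CCs pools against 1092 and 934 in the NSN-CCs pools, a log2 fold change of 0.80 ± 0.53, and 0.06 without the low array. Ube2d3, of the family that works with many RING ligases, had signals of 494 and 406 in the SN-CCs pools against 387 and 371 in the NSN-CCs pools. NSN-CCs were again lower without overlap, with a log2 fold change of -0.44 ± 0.15 (limma, unadjusted p = 0.0431, adjusted p = 0.811) and of -0.32 without SN-CCs replicate 2. Its relative Ube2d2a had signals of 9320.3 and 7399.5 in the SN-CCs pools against 7855 and 7677 in the NSN-CCs pools on one probe (0.15 ± 0.19, or -0.048) and of 2250.3 and 3541 in the SN-CCs pools against 1814 and 1584 in the NSN-CCs pools on another (-0.62 ± 0.28, or -0.27). The groups overlapped on the former, whose sign turned without SN-CCs replicate 2 and under median scaling (-0.15), and did not on the latter. Ube2d1, of the same family, was above the limit on no array, with signals of 88 and 78.3 in the SN-CCs pools against 81.1 and 88.4 in the NSN-CCs pools.

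Ube2a and Ube2b, the mouse homologues of yeast Rad6 that ubiquitinate histone and replication proteins, gave unlike values. Ube2a had signals of 569 and 692 in the SN-CCs pools against 416 and 440.1 in the NSN-CCs pools, with NSN-CCs lower and no overlap (-0.69 ± 0.28, limma, unadjusted p = 0.0629), or -0.34 without SN-CCs replicate 2. Ube2b had signals of 5453 and 2271 in the SN-CCs pools against 5107 and 4721 in the NSN-CCs pools, where SN-CCs replicate 2 was the low array (0.64 ± 0.44, and 0.038 without it). Among the E2 enzymes of the Ube2e family, Ube2e3 had signals of 849 and 189.8 in the SN-CCs pools against 961 and 986 in the NSN-CCs pools. Its NSN-CCs pools were both the highest, and the log2 fold change was 1.17 ± 0.58 (limma, unadjusted p = 0.111), and 0.34 without SN-CCs replicate 2. The other Ube2e3 probe gave 1.04 and 0.15. Ube2e1 had signals of 204 and 109.7 in the SN-CCs pools against 250.5 and 220.1 in the NSN-CCs pools (0.67 ± 0.31, and 0.28 without that array). Ube2e2 went the other way, with signals of 1161 and 1516 in the SN-CCs pools against 905 and 888 in the NSN-CCs pools (-0.57 ± 0.25, and -0.26).

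The E2 enzymes of modifiers other than ubiquitin also differed in the array that stood apart. For NEDD8, which activates cullin ligases, Ube2m had signals of 1734 and 208 in the SN-CCs pools against 1569 and 1863 in the NSN-CCs pools, and Ube2f of 2915 and 3368 in the SN-CCs pools against 2200.0 and 2438 in the NSN-CCs pools. Ube2m was lowest in SN-CCs replicate 2, at 12% of replicate 1 (1.43 ± 0.90, and 0.14 without it), and Ube2f was lower in both NSN-CCs pools on this probe (-0.32 ± 0.16, or -0.20). Ube2f has 3 further probes under an older name, all above the limit on all 4 arrays, which did not give 1 direction: -0.22 and 0.10 with overlap, and 0.43 with both NSN-CCs pools higher. Without SN-CCs replicate 2 they gave 0.026, -0.18 and 0.053. Ube2l6, the E2 of the interferon-induced modifier ISG15, was above the limit in 1 of 2 NSN-CCs pools and in neither SN-CCs pool. Its signals were 112 and 91.5 in the SN-CCs pools against 113 and 148 in the NSN-CCs pools. The NSN-CCs mean, in which replicate 1 is itself under its limit, was at least 1.016-fold the background of SN-CCs (adjusted p = 0.811, limma). This bound rests on NSN-CCs replicate 2. The groups overlapped, with a log2 fold change of 0.35 ± 0.23, or 0.18 without SN-CCs replicate 2. The partners of the anaphase-promoting complex, Ube2c (103 and 92.2 in the SN-CCs pools against 95 and 113 in the NSN-CCs pools) and Ube2s (198 and 113 in the SN-CCs pools against 219 and 186 in the NSN-CCs pools), were near background: Ube2c was above the limit on no array and Ube2s on 3.

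None of the other E2 genes had an unadjusted p under 0.05 on its brightest probe. Ube2l3 overlapped (-0.25 ± 0.21, or -0.013), as did Ube2q2 on its brightest probe (-0.022 ± 0.21, or -0.26). Ube2q1 (-0.33 ± 0.21, or -0.092), Ube2j1 (-0.30 ± 0.15, or -0.19) and Ube2n (-0.15 ± 0.14, or -0.14) had both NSN-CCs pools lowest in the normalized values of their brightest probes. Further probes of Ube2q1 (-0.13 ± 0.36, or 0.36) and Ube2n (-0.10 ± 0.17, or 0.046) overlapped. Another Ube2q2 probe above the limit on all 4 arrays had both NSN-CCs pools lowest (-0.40 ± 0.18, or -0.21). The last Ube2q2 probe, above the limit on 3 arrays, overlapped (0.29 ± 0.42, or -0.29). Ube2j2, an enzyme of the endoplasmic reticulum as Ube2j1 is, had higher normalized values in both NSN-CCs pools (0.70 ± 0.38, or 0.22). Ube2g2, Ube2r2, Ube2u and Ube2v2 had signals at or near the limit and log2 fold changes between -0.16 and 0.34. Over all 25 E2 genes the median was 0.029 with 12 lower, and over the 15 above the limit on all arrays it was -0.25 with 11 lower (73.3%, against 64.9% of the brightest probes of all genes above the limit). Both NSN-CCs pools were lowest in 8 of the 15 (53.3%) and highest in 2 (13.3%), against 29.2% and 15.5%. Without SN-CCs replicate 2 these medians were -0.043 and -0.14.

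**Figure D4:**
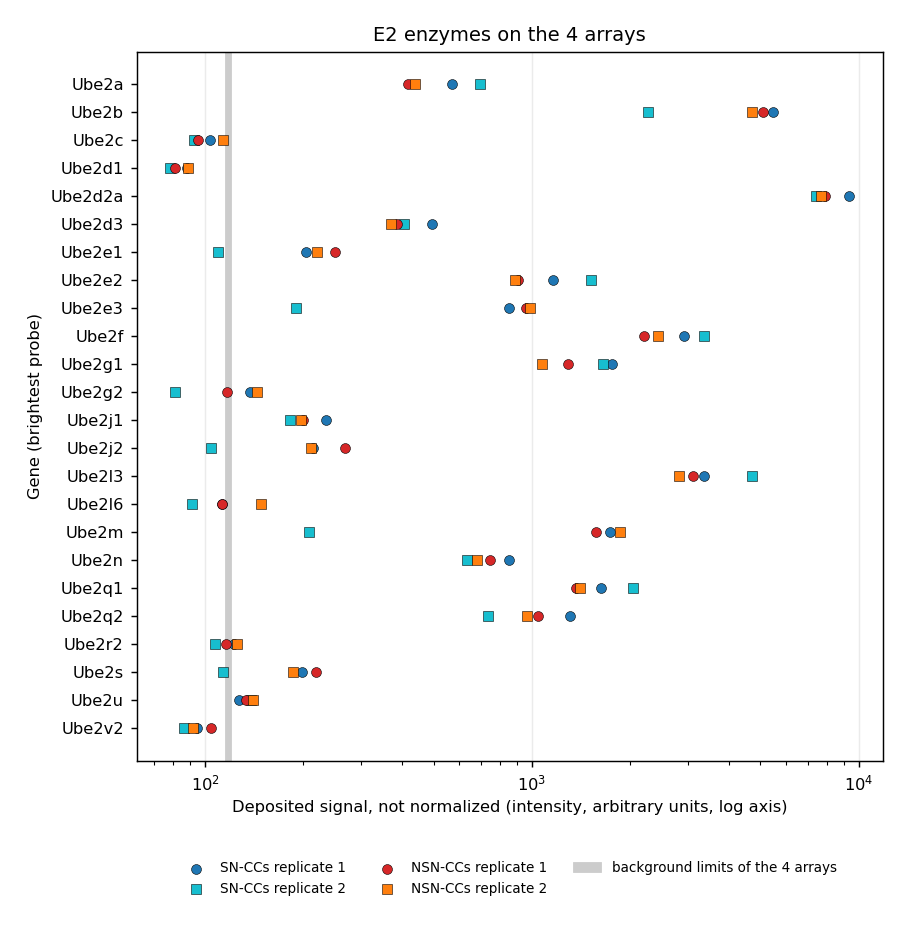
Deposited signal (log axis, arbitrary units) of the brightest probe of each of 24 of the 25 E2 genes on the 4 arrays, with the background limits as a grey band. Ube2g1, Ube2a and Ube2e2 show both NSN-CCs pools to the left, and Ube2m, Ube2e3 and Ube2b show SN-CCs replicate 2 alone to the left.

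Of the 2 genes that match by name only, Psmc3ip had signals of 1492 and 1389 in the SN-CCs pools against 1069 and 993 in the NSN-CCs pools. Its groups did not overlap and its pools were close, with a log2 fold change of -0.49 ± 0.14 (limma, unadjusted p = 0.0251, adjusted p = 0.811) and of -0.43 without SN-CCs replicate 2. The probe named Psme2b gave -0.43 ± 0.24, and -0.13 without that array.

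Probes of the same gene gave a measure of how far a fold change can be read. Among the members 17 genes had several probes above the limit on all arrays, and in 8 of them (47.1%) the probes had log2 fold changes of opposite sign, against 729 of 1714 such genes of the whole array (42.5%). The median gap between the lowest and the highest probe of a gene was 0.30 on the log2 scale, and 0.13 without SN-CCs replicate 2, where the probes still had opposite signs in 8 of the 17 (47.1%, against 37.5% of the 1714). For all 1714 genes the gaps were 0.37 and 0.16. The gap was over 1 in Psmb7, Psmc5, Psmd7 and Ube2g1, each of which had a probe on which SN-CCs replicate 2 was far below the rest.

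**Figure D5:**
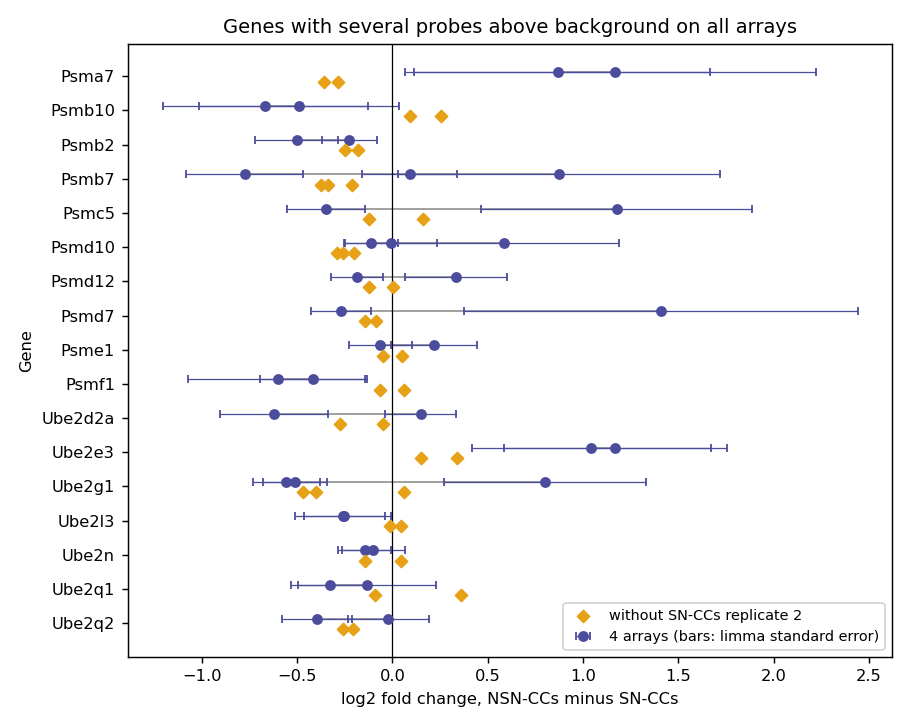
Log2 fold change (NSN-CCs minus SN-CCs) of each probe of the 17 member genes with several probes above the limit on all arrays, as circles with limma's standard error from 4 arrays and as diamonds without SN-CCs replicate 2. The circles of Psmd7, Psmc5, Psmb7 and Ube2g1 lie over 1 apart, and the diamonds of each of these genes lie closer together.

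Genes that work with the members were counted on the brightest probe of each. Of the brightest probes of all genes 59.8% were lower in NSN-CCs, and of those above the limit 64.9%. At an unadjusted p under 0.05 (limma) 2.02% of all probes were lower, and 4.34% of those above the limit. Without SN-CCs replicate 2, 49.8% of the brightest probes of all genes were lower. Of 20 partners of the proteasome 12 were lower (60%) and 8 higher in NSN-CCs (median -0.071, and -0.038 without SN-CCs replicate 2), with 1 at an unadjusted p under 0.05. This was Uchl5, a deubiquitinase of the cap, with signals of 839 and 585 in the SN-CCs pools against 513 and 521 in the NSN-CCs pools and a log2 fold change of -0.58 ± 0.13 (limma, unadjusted p = 0.00998, adjusted p = 0.811), or -0.62 without SN-CCs replicate 2. Sem1, a small cap subunit outside the naming rule, had signals of 9165 and 7966 in the SN-CCs pools against 5641 and 5091 in the NSN-CCs pools, lower in both NSN-CCs pools (-0.44 ± 0.17, or -0.57). Ubqln4, a carrier of ubiquitinated proteins, had a value that rests on SN-CCs replicate 2, its low array (0.37 ± 0.26, or 0.056). Nfe2l1, the gene of the factor whose element was searched, had signals of 9065 and 16195 in the SN-CCs pools against 8030.4 and 8125 in the NSN-CCs pools (-0.33 ± 0.30, and 0.058 without the high array, SN-CCs replicate 2).

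Of 21 genes of ubiquitin, related modifiers and E1 enzymes 10 were lower (47.6%) and 11 higher, with 1 lower at an unadjusted p under 0.05. The polyubiquitin gene Ubb had signals of 50695 and 38584 in the SN-CCs pools against 49988 and 53079 in the NSN-CCs pools (0.24 ± 0.17, or 0.072). Lower values were found in Nedd8 (-0.33 ± 0.14, or -0.25), and higher ones in the E1 gene Uba1 (0.90 ± 0.55, and 0.12 without SN-CCs replicate 2). Of 33 partner ligases 24 were lower (72.7%, and 60.6% without SN-CCs replicate 2) and 9 higher (median -0.12, and -0.083 without that array), and 4 of the lower ones had an unadjusted p under 0.05. The 2 with the smallest p were Skp1a, an adaptor of cullin ligases (signals of 1113 and 1406 in the SN-CCs pools against 643 and 734 in the NSN-CCs pools, -0.90 ± 0.25, or -0.61), and Dcun1d1, which promotes the attachment of NEDD8 to cullins (-0.49 ± 0.14, or -0.43). On the higher side they were Ube3b (0.26 ± 0.15, or 0.31) and Rnf4 (1.94 ± 1.33, and 0.0091 without SN-CCs replicate 2). Of 7 E2 genes with other names, such as Cdc34 and Atg3, 5 were lower (71.4%) and 2 higher (median -0.17), and none had an unadjusted p under 0.05.

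Markers of cell types and of cell division were counted on the brightest probe of each gene as well. Of the brightest probes of all genes 59.8% were lower in NSN-CCs, and of those above the limit 64.9%. All 10 oocyte markers were lower (median -0.40, and -0.20 without SN-CCs replicate 2), 7 of them above the limit on all 4 arrays and 2 on none (Zp2 and Ddx4), and their summed signals were 3590 and 3979 for SN-CCs, 2821 and 2879 for NSN-CCs. Of 15 genes of cell division 11 were lower (73.3%) and 4 higher (median -0.24, and -0.29 without that array). Their summed signals were 31922 and 27903 for SN-CCs, 23024 and 22923 for NSN-CCs. The 10 granulosa and cumulus markers had 8 higher and 2 lower (median 0.24, and 0.029 without SN-CCs replicate 2). Their summed signals were 157221 and 105337 for SN-CCs, 153699 and 148922 for NSN-CCs. Above the limit on all 4 arrays were 8 of the 10, the aromatase gene Cyp19a1 among them. Inha had signals of 46056 and 3760 in the SN-CCs pools against 45170 and 43879 in the NSN-CCs pools. Of 6 red cell markers 4 were above the limit on all arrays, and 4 were lower and 2 higher in NSN-CCs. Their summed signals were 13543 and 9352 for SN-CCs, 15528 and 16095 for NSN-CCs. The single gene Hba-a1 gave 12295 and 7965 of this for SN-CCs, 14494 and 15008 for NSN-CCs (0.78 ± 0.28, or 0.42 without SN-CCs replicate 2). The part of any of these cell types, or of cell division, in the values of the proteasome and E2 genes was not tested.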

How the data were processed

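RNA of cumulus cells from 2 SN-CCs pools and 2 NSN-CCs pools was hybridised to Illumina mouse BeadChips, 1 array a pool. The deposited intensities are BeadStudio probe signals on a linear scale (BeadStudio 3 in the submitters' processing notes), neither background-subtracted nor scaled by the authors. A further table of deposited intensities, background-subtracted and normalized by rank invariance by the authors, served as an alternative. The genome build of the probes was not given in the sources used here. Neither table held detection p-values, and the number of arrays limits the precision.

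Groups came from the sample titles. The signals of 25697 probes were corrected with normexp (offset 50), then quantile normalized, and their log2 values were fitted in R 4.3.3 with limma 3.58.1 (lmFit and eBayes, no covariates) and Benjamini-Hochberg adjustment over every probe of the table. The fit was run on simulated data with the same spread on all arrays, set from the NSN-CCs pools. Those data held no array that stood apart like SN-CCs replicate 2, so the run does not test the fit for that case. The methods name a permutation test without details, and limma stands in for it. A bound for a gene that is not above background in a group uses, on each array, the higher of the probe's own signal and the lowest signal above the background limit.

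Members and gene lists were chosen with earlier results of these data known. Of the 100 member probes 92 had an annotated symbol and 8 kept the name in the file. For each gene the brightest probe was used for medians. Values on all arrays are given for the catalytic subunits, for members at an unadjusted p under 0.05, for the 2 higher and 2 lower members of each class with the smallest p, for Ube2z, which the study lists as regulated, and for the brightest and dimmest member of a class. Other members are named to account for every gene. Some genes of the lists and 1 member are counted but not reported here by name. Promoters were RefSeq sequences of GRCm38.p6. A planned comparison of protein sequences was not run here. Alternatives were other background corrections (none, normexp with an offset of 16, chemosensory probes as negative controls), median scaling, the authors' normalized values, a filter to probes above the limit on at least 2 arrays, each pool left out, a replicate block, averaged probes and array weights.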

Additional observations from a re-analysis of the deposited data

How the results depend on the processing

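With 2 pools a group, 8 members had an unadjusted p under 0.05 in limma, against 1 with a normexp offset of 16, 0 with the authors' normalized values, 0 after the filter on dim probes and 5 with the probes of a gene averaged. It was 9 with no background correction, with chemosensory probes as negative controls and with array weights, and 12 with median scaling. Leaving out a pool, which leaves 1 pool assumed to vary like the other group, moved that count between 0 (each NSN-CCs pool) and 72 (SN-CCs replicate 1), with 18 without SN-CCs replicate 2. The count at an adjusted p under 0.05 ranged from 0 to 68, the latter without SN-CCs replicate 1 (32 higher and 36 lower in NSN-CCs, among 9582 of all probes), where SN-CCs replicate 2 alone stands for its group. Members whose groups did not overlap numbered 45, against 26 with averaged probes, fewer probes being counted, and 62 to 91 with a pool left out, where fewer pools are compared. The 91, without SN-CCs replicate 1, were 45 below and 46 above, against 49.7% and 34% of all probes. The authors' values moved the median of all probes to -0.43 and put 36 members below and 3 above without overlap (31% and 7% of all probes). Median scaling put 38 below and 6 above (26.9% and 11%).

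Class medians moved to -0.25 (non-ATPases) and -0.12 (regulators) under median scaling, to -0.0073 and 0.27 for the same classes with averaged probes, to -0.51 (alpha ring) and -0.26 (E2) with the authors' values, and to -0.47 (alpha ring) after the filter. With a pool left out they ranged from -0.35 to 0.037 in the alpha ring, from -0.13 to 0.38 in the beta ring, from -1.23 to 0.090 in the immune subunits (-0.54 with all pools), from -0.56 to -0.042 in the ATPases and from -0.048 to 0.16 in the E2 genes. Median scaling turned Psmb6 (-0.14), Psmc3 (-0.17), Psmd4 (-0.099) and Ube2d2a (-0.15), and the authors' values turned Psma6 (-0.47). The causes were not tested.

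Of 35 named members, each read by its brightest probe, 15 kept their direction in all of the 12 alternatives that fitted single probes, where the probe was present. The run with averaged probes was not read for single members. Psmc6, among the 15, has 11 such values. Psmc5, also among them, has a further probe of opposite sign that was not counted here. With a pool left out, log2 fold changes that turned ranged from -0.24 to 0.38 (Psmb5), -0.13 to 0.42 (Psmb6), -0.34 to 2.09 (Psmb7), -0.19 to 0.14 (Psmb8), -1.23 to 0.15 (Psmb9), -1.43 to 0.090 (Psmb10), -0.36 to 2.70 (Psma7), -0.14 to 0.037 (Psma1), -0.079 to 0.84 (Psmb4), -0.0063 to 0.36 (Psmc1), -0.62 to 0.036 (Psmc2), -0.013 to 1.17 (Psmd5), -0.17 to 0.048 (Psme1), -0.35 to 1.64 (Psme2), -1.26 to 0.058 (Psmf1), -0.13 to 0.12 (Ube2d1) and -0.048 to 0.34 (Ube2d2a).

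The deviations of same-numbered pools correlated at 0.041 over 25697 probes. Because SN-CCs replicate 2 stood apart, this value cannot show whether the pools were paired by replicate number. With the replicate number as a block 6 members had an unadjusted p under 0.05 (2 higher and 4 lower) and 0 an adjusted p under 0.05. Signals near background, as for Psma1, Psma6, Psmc6 and Ube2d1, limit what can be read from those probes.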

Other observations

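By the current annotation 20 further probes of 12 genes carry an older name in the signal table and so lie outside the naming rule. Of these probes 13 were above the background limit on all 4 arrays, 12 were lower and 8 higher in NSN-CCs (median log2 fold change -0.20, and -0.039 without SN-CCs replicate 2), and limma called none at an adjusted p of 0.05. The 1 probe at an unadjusted p under 0.05 was that of Ube2o, a large enzyme that acts as both E2 and ligase, with signals of 4944 and 4985 in the SN-CCs pools against 5816 and 5943 in the NSN-CCs pools. Here, unlike in the named members at that threshold, NSN-CCs were higher, with pools of each type close together (log2 fold change 0.47 ± 0.13, limma, unadjusted p = 0.0202, adjusted p = 0.811), and the value without SN-CCs replicate 2 was 0.46. Ube2t, an E2 of DNA repair, had signals of 147 and 208 in the SN-CCs pools against 109 and 107 in the NSN-CCs pools, and was not above background in either NSN-CCs pool (limma, unadjusted p = 0.058, adjusted p = 0.811). Psmg1, a chaperone of the core's assembly, had signals of 1007 and 977 in the SN-CCs pools against 733 and 824 in the NSN-CCs pools (-0.40 ± 0.17, and -0.27 without SN-CCs replicate 2), and its partner Psmg2 had lower normalized values in both NSN-CCs pools on each of its 2 probes (-0.24 and -0.48, and -0.18 and -0.11 without that array).

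Ube2z, an E2 charged by its own E1 enzyme, stands in the study's list of regulated genes, which was chosen on these arrays. The study gives it as down-regulated in NSN-CCs. One of its probes had signals of 434 and 101 in the SN-CCs pools against 398 and 356 in the NSN-CCs pools, with SN-CCs replicate 2 alone at background (0.92 ± 0.73, and -0.13 without it). The other had signals of 116 and 136 in the SN-CCs pools against 124 and 130.3 in the NSN-CCs pools near the limit (-0.18 ± 0.25, and 0.12). The 2 probes had opposite signs in both settings. The Ube2k probes, of an E2 that builds ubiquitin chains, gave 0.61 and 0.48 with SN-CCs replicate 2 the low array, and -0.0044 and -0.12 without it.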
